A study of Homo sapiens with 4 samples.

Results

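The DNA replication machinery was examined as a list of 45 genes that license origins, assemble the replisome, supply nucleotides and protect or methylate the newly made strands. Each of the 45 was found by its Ensembl identifier among the 58735 genes of the count table. Before S phase, the origin recognition complex, CDC6 and CDT1 load the MCM2-7 helicase onto DNA, and in S phase CDC45 and GINS join it to form the active helicase. Polymerases then copy both strands behind it, held to DNA by the PCNA clamp, which the RFC complex loads. Many of these genes are transcribed around the G1 to S transition under the control of E2F factors, and their transcripts are commonly read as a sign of how many cells in a culture are cycling. In a bulk sample, fewer cells in cycle and less of the RNA per cell cannot be told apart.

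The RNA came from MDA-MB-231 and SUM159 cells, human triple-negative breast cancer (TNBC) lines, treated with 1 μM mebendazole (MBZ), an anthelmintic drug that binds tubulin, or with DMSO, its solvent, for 72 h. MDA-MB-231 came from a cell repository and SUM159 was a gift of another laboratory. The lines were kept in different media, that of SUM159 with less serum and with added insulin and hydrocortisone. RNA enriched for mRNA was sequenced in 1 library for each line and treatment, so no difference within a line has a replicate check. The 4 libraries held between 17143139 and 24897586 counts. Intervals below are 95% Clopper-Pearson intervals on counts. They cover counting error only, and amplified reads that carry no molecular identifier are not separate molecules. The 7 mesenchymal markers VIM, CD44, ZEB1, FN1, AXL, CAV1 and SPARC were detected in each library, from 18 counts for SPARC in MDA-MB-231 with MBZ to 98237 for FN1 in SUM159 with DMSO. The 9 luminal markers summed to 841 to 1733 CPM (counts scaled to the size of the library), most of it the keratins KRT8 and KRT18, with 2 of the 9 at 0 counts in each library. ESR1, the estrogen receptor, had 0 to 18 counts and PGR, the progesterone receptor, had 0 in each library. Leukocyte and endothelial markers summed to 2.62 to 44.2 CPM and 16.1 to 41.3 CPM. The 5 leukocyte markers stood highest in SUM159 with DMSO (44.2 CPM, against 11.5 with MBZ), carried mostly by CD14, a monocyte marker, with 477 counts (110 with MBZ) and PTPRC, a marker of all leukocytes, with 216 (60 with MBZ), while ITGAM, a myeloid integrin, had 39 (66 with MBZ). CD3E, which defines T cells, had 0 counts there. Their part in the results was not tested.

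Transcripts of the replication machinery stood lower after MBZ in MDA-MB-231 and higher after MBZ in SUM159. The list took 0.498% of all counts in MDA-MB-231 with DMSO (interval 0.496% to 0.501%) and 0.304% with MBZ (0.301% to 0.307%). In SUM159 it took 0.134% with DMSO (0.132% to 0.135%) and 0.286% with MBZ (0.283% to 0.288%). The median level of the 45 genes, in CPM with TMM normalization over the 4 libraries, was 75.5 and 44.6 in MDA-MB-231 with DMSO and MBZ, and 19.6 and 43.5 in SUM159. The lines therefore stood further apart in these genes with DMSO than with MBZ.

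**Figure D1:**
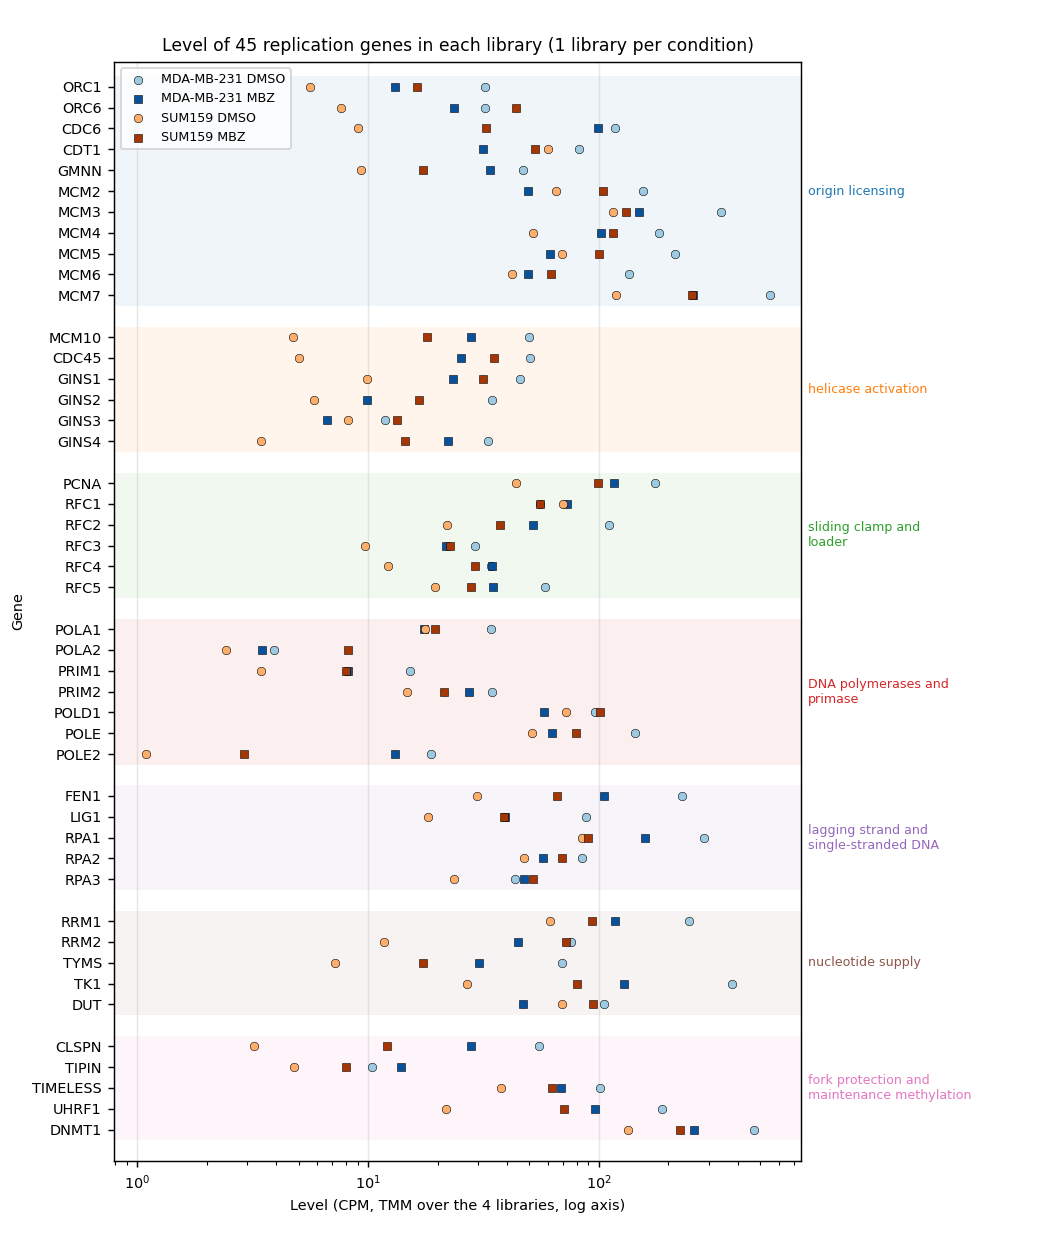
Level of each of the 45 genes in the 4 libraries, in CPM on a log axis, with 1 point per library and genes ordered by role. MDA-MB-231 with DMSO (light blue circles) was the highest of the 4 libraries for 37 genes, and SUM159 with DMSO (light orange circles) the lowest for 37 genes.

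Fold changes are log2 ratios of MBZ over DMSO within a line, from TMM-normalized counts, and a gene was called lower or higher at a fold change of at least 1.5 if its 2 counts in the line averaged 10 or more. All 45 genes reached that mean in both lines. In MDA-MB-231, 33 of the 45 (73.3%) were called lower, where 15.8% of all 15142 genes compared were, and 0 were called higher, where 18.3% of all genes were. The median log2 fold change was -0.88 over the 45 genes and -0.02 over all genes. In SUM159, 33 of the 45 were called higher, against 21.5% of all 15674 genes, and 0 were called lower, against 21.7%. There the medians were 1.10 and -0.03. Scaling by total counts alone put the median of all genes at 0.25 in MDA-MB-231 and 0.27 in SUM159, and the median of the 45 genes at -0.61 and 1.40. Past a 2-fold difference, 17 of the 45 genes were lower in MDA-MB-231, against 5.14% of all genes, and 24 were higher in SUM159, against 12.7%.

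Of the 45 genes, 23 (51.1%) were called lower in MDA-MB-231 and also higher in SUM159, against 3.12% of the 13733 genes compared in both lines. As 0 of the 45 were called higher in MDA-MB-231 and 0 lower in SUM159, no gene could be called in the same direction in both lines. The counting interval lay below 0 in MDA-MB-231 and above 0 in SUM159 for 37 of the 45 genes, against 10.6% of all genes. A change alike in both lines was tested with edgeR's quasi-likelihood test, with terms for line and treatment and each line serving as a replicate of the other. Fold changes of opposite sign cancel in the shared estimate and widen its spread, so genes that moved in opposite directions could hardly pass. The counts from this test therefore do not bear on a change within either line. By this test 0 of the 45 genes and 0.00621% of all 16100 genes tested had an adjusted p under 0.05 (Benjamini-Hochberg). An unadjusted p under 0.05 was reached by 0 of the 45 and by 1150 (7.14%) of all genes. DESeq2's Wald test called 0 of the 45 as well, and 100 (0.698%) of all 14321 genes with an adjusted p. With every gene that had a count kept in the edgeR test, 0 of the 45 were called and 5 had an unadjusted p under 0.05, against 298 (0.923%) and 1982 (6.14%) of all 32295 genes tested, and the lowest adjusted p among the 45 was 0.438 for ORC6. In the test with filterByExpr the lowest adjusted p among them was 0.721 for CDT1 (edgeR quasi-likelihood test, shared log2 fold change -0.76, standard error 0.37, lower in both lines after TMM normalization but not after scaling by total counts). The difference between the lines could not be tested with 1 library per line and treatment.

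**Figure D2:**
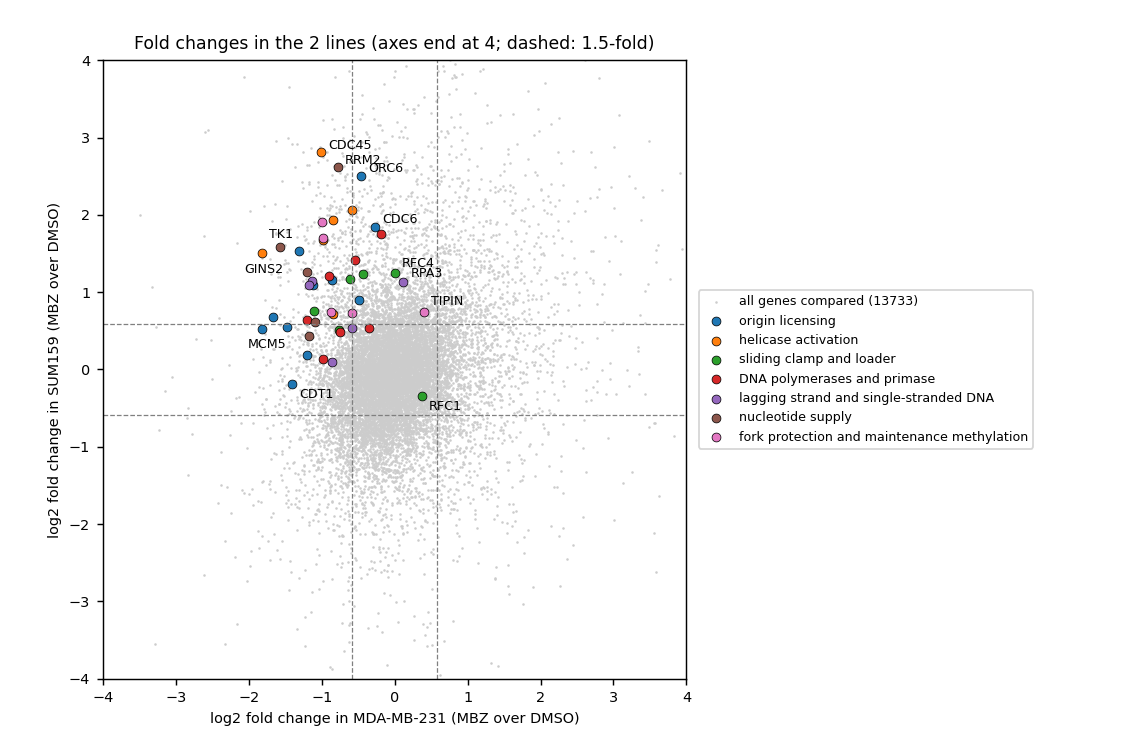
Log2 fold change of MBZ over DMSO in MDA-MB-231 (horizontal) against SUM159 (vertical), with 13733 genes in grey and the 45 replication genes coloured by role. The 23 genes called in both lines lie in the upper left field, and RFC1, to the lower right of the centre, is the one gene with a positive value in MDA-MB-231 and a negative value in SUM159.

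Across the 45 genes Pearson's r between the lines was 0.04 and Spearman's rho 0.14, where all 13733 genes gave 0.19 and 0.17. These are correlations across genes of 4 shared libraries, and genes are not independent replicates. In MDA-MB-231 and SUM159, CDC6 was at -0.28 and 1.84 on the log2 scale and ORC6 at -0.46 and 2.505, whereas MCM5 was at -1.82 and 0.53 and MCM3 at -1.21 and 0.19.

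Promoter sequence was a feature that the list did not use. RefSeq promoters on GRCh38.p14, from 250 bases before to 50 after the start of a gene, were at hand for 40 of the 45 genes. The letters of an E2F site (TTCCCGC or TTCGCGC or TTGCCGC or TTGGCGC, on either strand, with overlapping matches counted) were in 29 of the 40 (72.5%). They were in 13.1% of all 27305 promoters of this length and in 20.9% of the promoters of 10345 genes compared in both lines. At least 2 such matches were in 12 of the 40 promoters, against 1.81% of all. Among genes called in opposite directions in the 2 lines, 16 of 21 promoters (76.2%) held a match, and among the other genes 13 of 19 (68.4%). The CCAAT letters were in 57.5% of the 40, in 35.7% of all promoters and in 36.6% of those of genes compared in both lines. The CHR letters (TTTGAA or TTCGAA), an element known from promoters of mitotic genes, were in 5.0% of the 40, in 16.6% of all promoters and in 1135 of the 10345 promoters of genes compared in both lines. CDC45, RRM2, ORC6, TK1, MCM10, FEN1, DUT, GMNN, POLD1, PRIM2 and TIPIN were without the E2F letters in this window, and RFC1 held 2 matches. A match is a description of letters and not evidence of binding. The stretches from 120 bases before to 30 after the start are given below for the 6 genes with the most counts among those called in opposite directions that held a match in the stretch. They are printed 5′ to 3′ on the strand of the gene, with the E2F letters in capitals.
MCM7 (chr7:100101368-100101517, minus strand): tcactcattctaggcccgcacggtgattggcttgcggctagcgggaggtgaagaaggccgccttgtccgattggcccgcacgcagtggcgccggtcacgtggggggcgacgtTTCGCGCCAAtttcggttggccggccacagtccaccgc
DNMT1 (chr19:10194924-10195073, minus strand): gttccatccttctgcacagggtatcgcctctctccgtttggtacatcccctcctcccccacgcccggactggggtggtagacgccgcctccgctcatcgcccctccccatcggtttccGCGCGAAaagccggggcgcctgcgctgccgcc
PCNA (chr20:5126593-5126742, minus strand): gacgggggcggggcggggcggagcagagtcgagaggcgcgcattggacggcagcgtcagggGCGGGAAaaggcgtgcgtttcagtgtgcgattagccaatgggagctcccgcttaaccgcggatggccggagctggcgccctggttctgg
UHRF1 (chr19:4909381-4909530, plus strand): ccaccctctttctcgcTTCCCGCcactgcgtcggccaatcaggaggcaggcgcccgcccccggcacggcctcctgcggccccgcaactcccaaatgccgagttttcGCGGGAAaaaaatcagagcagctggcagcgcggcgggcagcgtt
MCM2 (chr3:127598291-127598440, plus strand): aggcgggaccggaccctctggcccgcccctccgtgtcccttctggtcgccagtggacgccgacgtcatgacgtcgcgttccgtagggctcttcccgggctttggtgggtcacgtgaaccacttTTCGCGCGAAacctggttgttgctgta
POLE (chr12:132687313-132687462, minus strand): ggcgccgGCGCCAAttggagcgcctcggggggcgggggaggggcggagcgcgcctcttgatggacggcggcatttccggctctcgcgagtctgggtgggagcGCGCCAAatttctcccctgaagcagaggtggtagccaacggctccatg
In MCM7 and MCM2 the capitals are 2 overlapping matches read on opposite strands, and in MCM2 they lie after the start. UHRF1 and POLE held 2 separate matches, and DNMT1 and PCNA 1 each.

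The origin licensing genes (ORC1, ORC6, CDC6, CDT1, GMNN and MCM2 to MCM7) were lower in MDA-MB-231 for 8 of 11 genes and higher in SUM159 for 7 of 11, with median log2 fold changes of -1.21 and 0.90. MCM5, a subunit of the helicase, had the lowest fold change of the list in MDA-MB-231. Its level there was 214 CPM with DMSO and 61.5 with MBZ, and in SUM159 69.5 and 100.3. It was thus 3.52-fold lower in MDA-MB-231 (log2 -1.82, interval -1.91 to -1.73), while the 1.44-fold difference in SUM159 was under the 1.5-fold threshold (log2 0.53, interval 0.43 to 0.64). MCM2, MCM3, MCM4, MCM6 and MCM7 were also called lower in MDA-MB-231, from -1.67 for MCM2 to -0.86 for MCM4. In SUM159 MCM4 (1.16), MCM7 (1.09) and MCM2 (0.68) were called higher, and MCM3 had the smallest difference of the helicase, 0.19 (interval 0.10 to 0.28). MCM7 had the most counts of the list, with 12745, 4868, 1968 and 5210 in MDA-MB-231 with DMSO and MBZ and SUM159 with DMSO and MBZ. Its 2 levels with MBZ, 256 and 253 CPM, were alike in the lines. MCM7 shares 29 exonic bases with the microRNA gene MIR93, and 392 bases with AP4M1 on the opposite strand.

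Among the genes that load the helicase, ORC1 and CDC6 differed in MDA-MB-231. ORC1, the large subunit of the origin recognition complex, stood at 32.1, 13.05, 5.61 and 16.2 CPM in the 4 libraries in the same order, and was 2.49-fold lower in MDA-MB-231 and 2.89-fold higher in SUM159. CDC6, the ATPase that recruits the helicase with CDT1, stood at 118, 98.6, 9.00 and 32.3 CPM. Its difference in MDA-MB-231 was under the threshold (log2 -0.28, interval -0.36 to -0.19, and -0.01 with scaling by total counts), and in SUM159 it was 3.59-fold higher (log2 1.84, interval 1.59 to 2.11). ORC6, the smallest subunit of the complex, had 746, 448, 127 and 898 counts. It was 5.67-fold higher in SUM159 (log2 2.505, interval 2.24 to 2.79), the most of the licensing genes, and its value in MDA-MB-231 was -0.46. SUM159 with MBZ were the highest of the 4 libraries for ORC6, which 5 genes of the list had in common.

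CDT1, the loader of the helicase, and GMNN, geminin, the protein that blocks CDT1, did not move in parallel. CDT1 had 1909, 598, 993 and 1086 counts, a level of 82.1, 31.5, 60.0 and 52.7 CPM. It was 2.64-fold lower in MDA-MB-231 and was one of 2 genes, with RFC1, whose interval lay below 0 in SUM159 (log2 -0.19, interval -0.31 to -0.06). With scaling by total counts that value was 0.11. GMNN stood at 46.8, 33.6, 9.30 and 17.3 CPM, at -0.50 in MDA-MB-231 and 0.90 in SUM159 on the log2 scale, called in the latter alone. The ratio of CDT1 to GMNN counts was 1.76 (interval 1.63 to 1.89) with DMSO and 0.936 (0.836 to 1.05) with MBZ in MDA-MB-231, and 6.45 (5.44 to 7.69) and 3.04 (2.70 to 3.44) in SUM159. The ratio was therefore lower with MBZ in both lines, outside counting error. The ratio of CDC6 to CDT1 counts was higher with MBZ in both lines, at 1.44 and 3.13 in MDA-MB-231 and 0.150 and 0.613 in SUM159. No normalization enters these ratios, and gene length does not alter how they differ between libraries.

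The 6 genes of helicase activation were all called lower in MDA-MB-231 and all called higher in SUM159, and had the highest median of the role groups in SUM159, 1.81, against -0.92 in MDA-MB-231. CDC45, which joins MCM2-7 in the active helicase, had 1165, 480, 83 and 726 counts, or 50.1, 25.3, 5.01 and 35.2 CPM. It was 2.01-fold lower in MDA-MB-231 (log2 -1.01, interval -1.16 to -0.85) and 7.02-fold higher in SUM159 (log2 2.81, interval 2.48 to 3.16), the highest fold change of the list. MCM10, needed for the start of unwinding, stood at 49.7, 28.0, 4.71 and 18.0 CPM. The GINS complex, the third component of the active helicase, has 4 subunits. GINS2 stood at 34.4, 9.89, 5.86 and 16.6 CPM and had the lowest fold change of the group in MDA-MB-231, 3.52-fold lower. GINS4, at 33.0, 22.2, 3.44 and 14.4 CPM, was just past the threshold in MDA-MB-231 (log2 -0.59, interval -0.77 to -0.42) and was 4.19-fold higher in SUM159. With TMM over the 4 libraries GINS4 was at -0.57 in MDA-MB-231, under the threshold. GINS3, at 11.8, 6.63, 8.15 and 13.4 CPM, had the smallest change of the group in SUM159, 1.64-fold higher. Its exons share 558 bases, and those of GINS4 1276 bases, with lncRNA genes on the opposite strand.

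**Figure D3:**
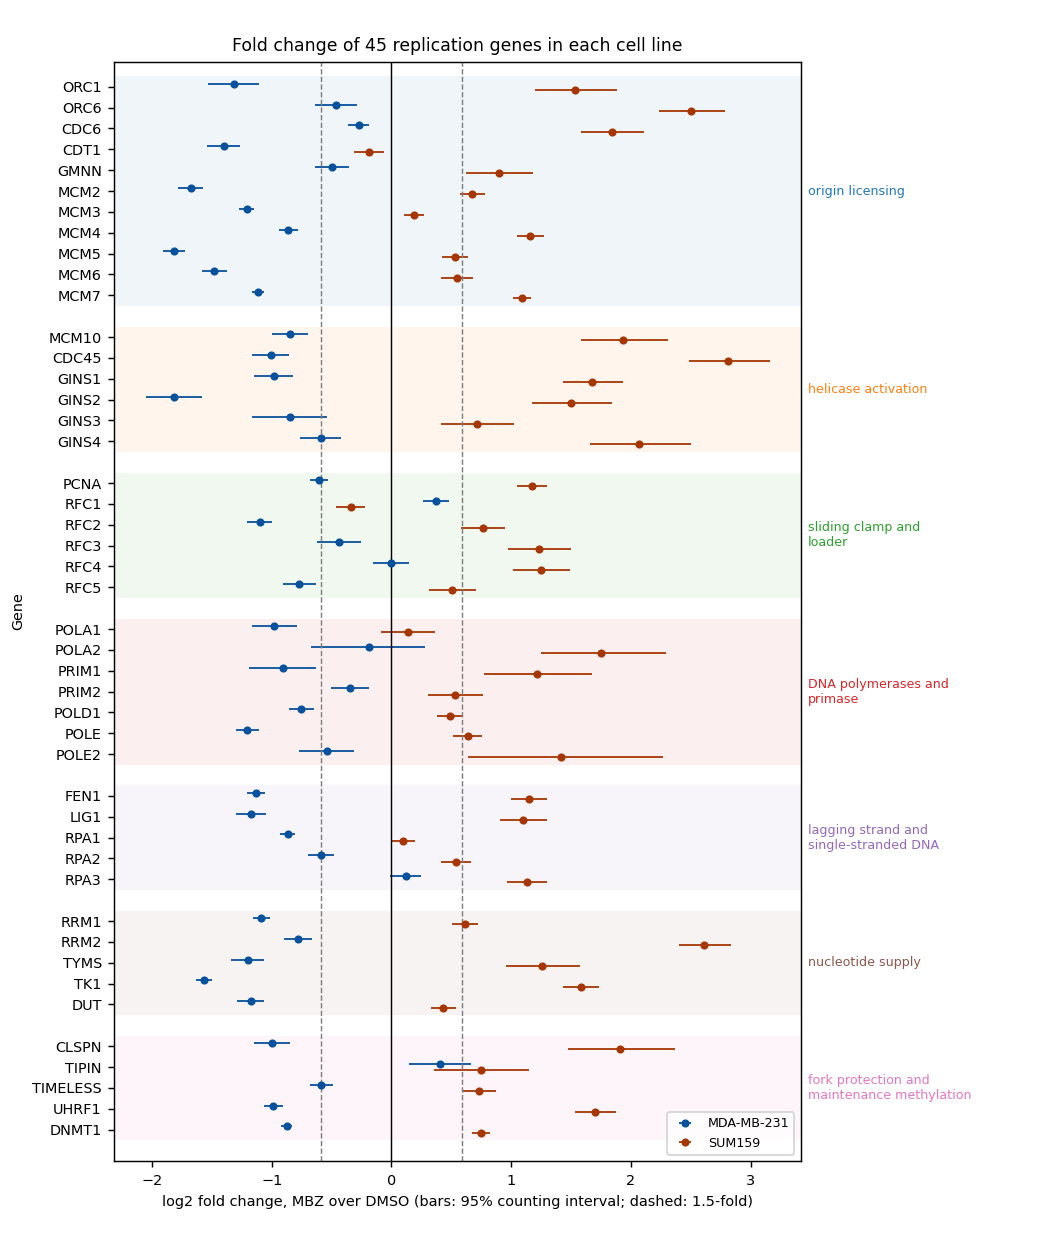
Log2 fold change of MBZ over DMSO for each gene in MDA-MB-231 (blue) and SUM159 (red), with bars for the 95% counting interval and dashed lines at 1.5-fold. The intervals of the 2 lines lie on opposite sides of 0, below in MDA-MB-231 and above in SUM159, for 37 of the 45 genes.

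Of the clamp and its loader, 3 of 6 genes were called lower in MDA-MB-231 and 4 of 6 higher in SUM159, with medians of -0.52 and 0.97. PCNA, the sliding clamp that holds polymerases on DNA, stood at 175, 116, 43.8 and 99.0 CPM, 1.52-fold lower in MDA-MB-231 and 2.26-fold higher in SUM159. RFC2, a small subunit of the loader, stood at 110.2, 52.0, 21.97 and 37.3 CPM and had the largest difference of the group in MDA-MB-231, 2.15-fold lower. RFC4 had 792, 655, 201 and 596 counts. It was at -0.0015 on the log2 scale in MDA-MB-231 (interval -0.15 to 0.15, and 0.26 with scaling by total counts) and 2.38-fold higher in SUM159. RFC3 was called in SUM159 alone (log2 1.23) and RFC5 in MDA-MB-231 alone (-0.77).

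RFC1, the large subunit of the loader, went the other way from most of the list. Its counts were 1293, 1387, 1160 and 1141, and its level 55.6, 73.0, 70.0 and 55.3 CPM, so that MDA-MB-231 with MBZ were highest and SUM159 with MBZ lowest. Its log2 value was 0.37 in MDA-MB-231 (interval 0.26 to 0.48) and -0.34 in SUM159 (interval -0.46 to -0.22), neither past the threshold. With scaling by total counts it was 0.64 and -0.04. RFC1 was also the only one of the 45 genes that was not lower in SUM159 than in MDA-MB-231 with DMSO. Per length of the canonical transcript, in RPKM, RFC1 was the lowest of the 5 RFC subunits in MDA-MB-231 with DMSO (11.4, against 65.4 for RFC2) and the highest in SUM159 with DMSO (14.4, against 13.0 for RFC2).

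Among the DNA polymerases and primase, 4 of 7 genes were called lower in MDA-MB-231 and 4 of 7 higher in SUM159, with medians of -0.75 and 0.64. POLE, the catalytic subunit of the leading-strand polymerase epsilon, had 3313, 1189, 850 and 1644 counts and was 2.31-fold lower in MDA-MB-231 and 1.55-fold higher in SUM159. POLE2, its second subunit, had 436, 248, 18 and 60 counts, the fewest of the list in SUM159. Its value in SUM159, 1.42, had the widest interval of the list there (0.64 to 2.27), and its value in MDA-MB-231, -0.54, was under the threshold. In RPKM, POLE exceeded POLE2 by 1.64 and 1.04 times in MDA-MB-231 with DMSO and MBZ and by 10.2 and 5.93 times in SUM159. POLD1, the catalytic subunit of polymerase delta, was called lower in MDA-MB-231 (-0.75) and was at 0.48 in SUM159.

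The polymerase alpha and primase complex starts each new strand with an RNA and DNA primer. POLA1, its catalytic subunit, stood at 34.1, 17.5, 17.6 and 19.4 CPM, 1.97-fold lower in MDA-MB-231 and not distinguishable from no change at this depth in SUM159 (log2 0.14, interval -0.08 to 0.36). POLA2, its accessory subunit, had 91, 66, 40 and 168 counts. Its interval in MDA-MB-231 spanned 0 (-0.67 to 0.28), and in SUM159 it was 3.37-fold higher. Exons of POLA2 share 2012 bases with another protein-coding gene on the same strand, and union mode counts a read on such bases for neither gene, so its level is uncertain. PRIM1, the primase that makes the RNA, was at -0.91 and 1.22, called in both lines, and shares 501 exonic bases with 2 genes on its strand. PRIM2, its partner, was at -0.35 and 0.53 and was called in neither.

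Genes of the lagging strand and single-stranded DNA were called lower in MDA-MB-231 for 4 of 5 and higher in SUM159 for 3 of 5. FEN1, the nuclease that trims flaps of Okazaki fragments, stood at 229, 106, 29.6 and 65.8 CPM, and LIG1, the ligase that joins the fragments, at 87.6, 39.3, 18.1 and 38.8 CPM. The 2 genes moved by like amounts in both lines, -1.13 and 1.15 for FEN1 and -1.17 and 1.10 for LIG1. The 3 subunits of RPA, the complex that coats single-stranded DNA, did not. RPA1 had 6622, 3010, 1392 and 1852 counts and was called lower in MDA-MB-231 (log2 -0.86) with an interval that spanned 0 in SUM159 (-0.01 to 0.20). RPA3 had 1001, 900, 390 and 1063 counts, with an interval that spanned 0 in MDA-MB-231 (-0.01 to 0.25) and a 2.19-fold higher level in SUM159. RPA2 lay between them at -0.59 and 0.54, just past the threshold in MDA-MB-231. With TMM over the 4 libraries RPA2 was at -0.57 there, under the threshold. Pseudogenes named after RPA2 (3) and RPA3 (2) are in the annotation, and how reads that fit a gene and its copy equally were treated is not given in the sources used here.

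**Figure D4:**
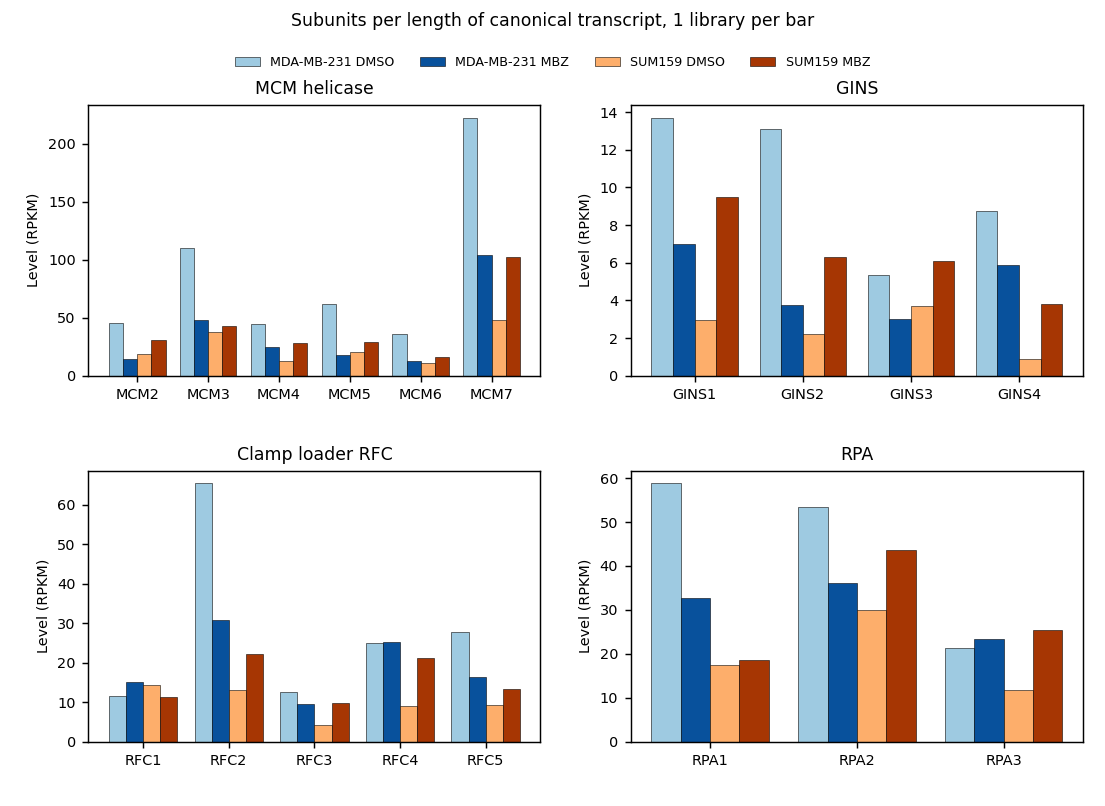
Level in RPKM, per length of the canonical transcript, of the subunits of MCM2-7, GINS, RFC and RPA, with 1 bar per library. MCM7 was the highest MCM subunit in each library, from 48.2 to 222 RPKM, and RFC1 was the lowest RFC subunit in MDA-MB-231 with DMSO and the highest in SUM159 with DMSO.

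Subunits of one complex differed in level as well as in fold change. In RPKM the highest subunit of MCM2-7 exceeded the lowest, MCM6, by 6.17 and 7.94 times in MDA-MB-231 with DMSO and MBZ and by 4.28 and 6.22 times in SUM159. For GINS the highest subunit exceeded the lowest by 2.56 and 2.33 times in MDA-MB-231 and by 4.06 and 2.48 times in SUM159. The lowest GINS subunit was GINS3 in both MDA-MB-231 libraries and GINS4 in both SUM159 libraries. Across the whole list, the highest gene in RPKM was TK1 in MDA-MB-231 with DMSO (263) and MCM7 in the other 3 libraries (104 with MBZ in MDA-MB-231, and 48.2 and 102 in SUM159). The lowest was POLA2 in both MDA-MB-231 libraries (1.10 and 0.98) and CLSPN in both SUM159 libraries (0.38 and 1.41). Bases that POLA2 shares with another gene enter its length but yield it no reads, so its RPKM may be too low. RPKM used the canonical transcript of each gene, and the transcripts that these cells use were not measured.

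The 5 genes of nucleotide supply were all called lower in MDA-MB-231 and 4 of 5 were called higher in SUM159, with medians of -1.17 and 1.26. TK1, thymidine kinase, which salvages thymidine in S phase, had 8760, 2446, 445 and 1659 counts, or 377, 129, 26.9 and 80.4 CPM. It was 2.96-fold lower in MDA-MB-231 (log2 -1.57, interval -1.63 to -1.50) and 2.99-fold higher in SUM159 (log2 1.58, interval 1.43 to 1.74). TYMS, thymidylate synthase, stood at 68.8, 30.3, 7.18 and 17.2 CPM, and its exons share 1160 bases with genes on the opposite strand. DUT, which removes dUTP, stood at 104.8, 47.0, 69.4 and 93.8 CPM. It was called lower in MDA-MB-231 and was at 0.43 in SUM159, and 8 pseudogenes carry its name.

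RRM1 and RRM2, the large and small subunits of ribonucleotide reductase, the enzyme that makes deoxynucleotides, had unequal fold changes in SUM159. RRM2 had 1756, 847, 195 and 1487 counts and was 1.72-fold lower in MDA-MB-231 and 6.12-fold higher in SUM159 (log2 2.61, interval 2.40 to 2.84). RRM1 had 5704, 2224, 1012 and 1928 counts, 2.12-fold lower and 1.53-fold higher. The ratio of RRM2 to RRM1 counts was 0.308 (interval 0.292 to 0.325) with DMSO and 0.381 (0.351 to 0.412) with MBZ in MDA-MB-231, and 0.193 (0.164 to 0.225) and 0.771 (0.720 to 0.826) in SUM159. It was higher with MBZ in both lines, outside counting error. Pseudogenes named after RRM2 (3) leave its level less certain.

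Among genes of fork protection and maintenance methylation, 3 of 5 were called lower in MDA-MB-231 and 5 of 5 higher in SUM159, with medians of -0.88 and 0.75. CLSPN, claspin, an adaptor of the replication checkpoint, had 1274, 529, 53 and 248 counts, 1.99-fold lower and 3.75-fold higher. UHRF1, which brings DNMT1 to newly made DNA, stood at 188, 95.9, 21.7 and 70.7 CPM, and DNMT1, the maintenance methyltransferase, at 467, 258, 133 and 224 CPM. UHRF1 was at -0.99 and 1.70 and DNMT1 at -0.88 and 0.75. TIMELESS and TIPIN form a complex that stabilizes the fork, and their transcripts differed in MDA-MB-231. TIMELESS stood at 101.5, 68.5, 37.6 and 62.5 CPM, with a value in MDA-MB-231 of -0.58 that lay at the threshold without passing it. TIPIN had 242, 265, 79 and 165 counts, with log2 values of 0.40 in MDA-MB-231 (interval 0.15 to 0.66) and 0.75 in SUM159 (0.35 to 1.15). It is the only gene of the list with intervals above 0 in both lines, and a processed pseudogene shares 579 of its exonic bases on the same strand. With RFC1, it was one of 2 genes past 1.5-fold higher in MDA-MB-231 when counts were scaled by totals.

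The difference between the fold changes of the lines, SUM159 minus MDA-MB-231, had an interval above 0 for 43 of the 45 genes, against 31.7% of the 13733 genes compared in both lines, and below 0 for 1, against 34.4%. Its median on the log2 scale was 1.94 over the 45 genes and -0.04 over all genes. It was 3.82 for CDC45 (Wald counting interval 3.46 to 4.18), 3.39 for RRM2 (3.15 to 3.64), 3.32 for GINS2 (2.92 to 3.71) and 3.15 for TK1 (2.99 to 3.31). TIPIN had a difference of 0.34 with an interval that spanned 0 (-0.12 to 0.80), and RFC1 a difference of -0.71 (-0.87 to -0.55).

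The same 4 libraries can be read across the lines at each treatment. The lines were kept in different media, so line and medium cannot be told apart in these ratios. With DMSO, 44 of the 45 genes were lower in SUM159 than in MDA-MB-231 and 41 (91.1%) were at least 1.5-fold lower, against 28.5% of all 13706 genes compared. The median log2 ratio of SUM159 over MDA-MB-231 was -1.82 (quartiles -2.56 and -1.24), where all genes had -0.02. It ranged from -4.11 for POLE2 and -4.10 for CLSPN to 0.33 for RFC1. With MBZ, 25 of the 45 were lower in SUM159, 11 (24.4%) by at least 1.5-fold, where 26.5% of all 13733 genes were. In the other direction 10 (22.2%) were higher by that much, where 23.4% of all genes were. The median was -0.04 (quartiles -0.48 and 0.44), and the range ran from -2.16 for POLE2 to 1.23 for POLA2. The median size of the ratio over the 45 genes was 1.82 with DMSO and 0.48 with MBZ, while over all genes it was 0.70 and 0.58. These values and the fold changes rest on the same 4 libraries and are not independent of each other.

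**Figure D5:**
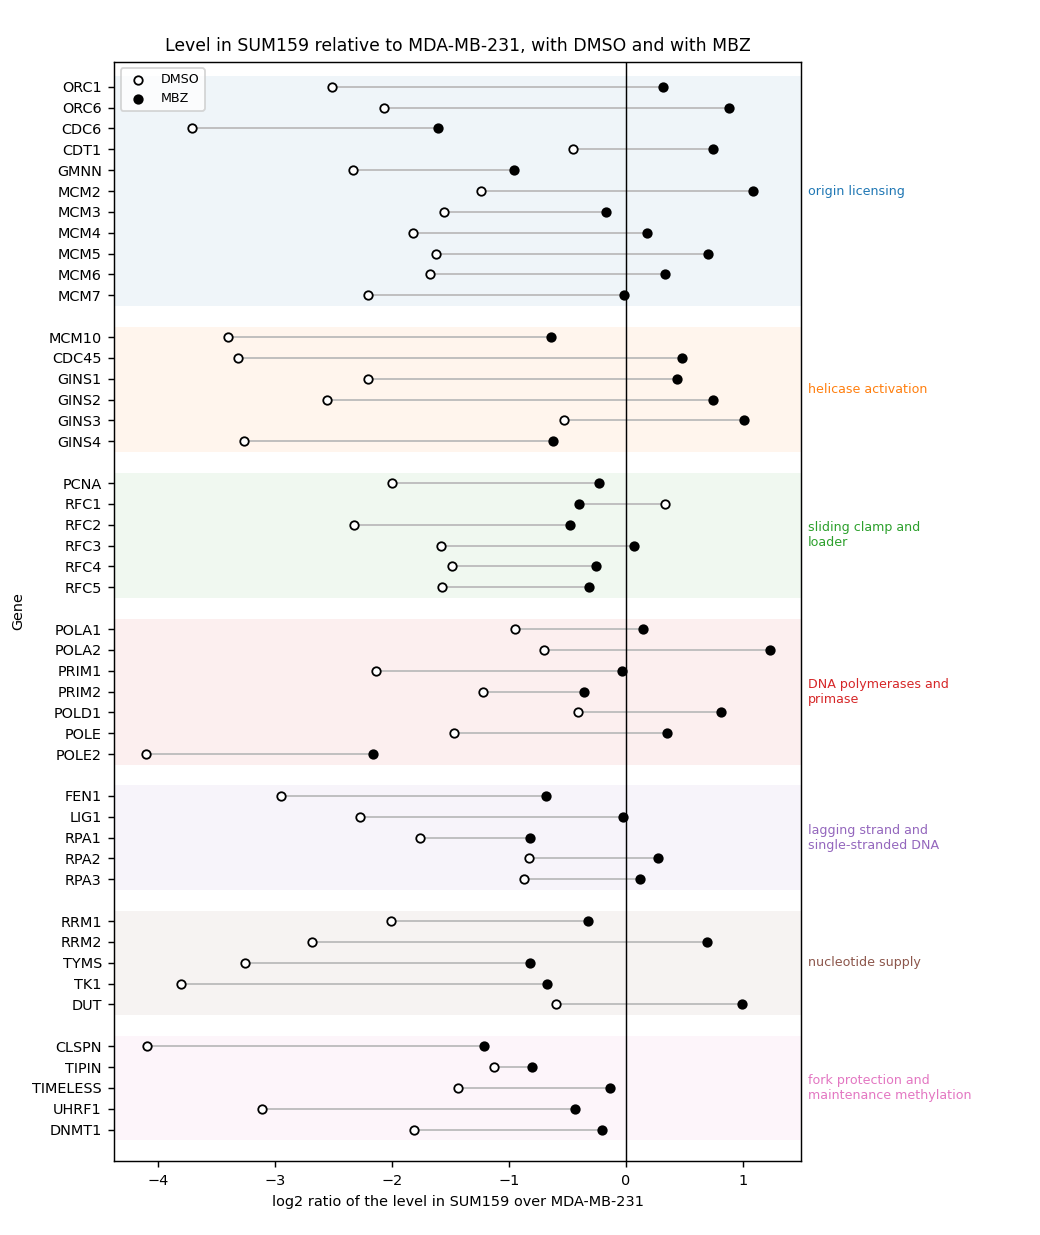
Log2 ratio of the level in SUM159 over MDA-MB-231 for each gene, with DMSO (open circles) and with MBZ (filled circles) joined by a line. With DMSO 44 of the 45 genes lie to the left of 0, and with MBZ 25 do.

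Other genes of the pathway were compared through 3 further lists, beside 15.8% of all genes called lower and 18.3% higher in MDA-MB-231 and 21.5% higher and 21.7% lower in SUM159. Of 37 other replication factors, 12 were called lower and 1 higher in MDA-MB-231 (median log2 fold change -0.43), and of the 36 compared in SUM159 0 were called lower and 16 higher (median 0.56). CHAF1B and ASF1B, which place histones on new DNA, were lowest in MDA-MB-231 at -1.78 and -1.57. POLD4, a small subunit of polymerase delta, and ORC4 of the origin recognition complex were highest at 0.66 and 0.47. In SUM159 CHTF18, part of an alternative clamp loader, and RECQL4, a helicase, were highest at 2.06 and 2.03, and MCM9 and POLD4 were lowest at -0.51 and -0.47. Of 17 other genes of nucleotide metabolism, 5 were lower in MDA-MB-231 (median -0.41), and in SUM159 5 were higher and 4 lower (median -0.14), where 21.5% and 21.7% of all genes were. DTYMK, thymidylate kinase, was called lower in MDA-MB-231 at -0.79 and higher in SUM159 at 1.06. SAMHD1, which breaks down deoxynucleotides, was lowest in SUM159 at -0.93.

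Of 18 genes of the E2F and RB family, 6 were called lower in MDA-MB-231 (median -0.27), and 7 higher and 2 lower in SUM159 (median 0.24). MYBL2 and E2F2, both transcription factors of the cell cycle, were lowest in MDA-MB-231 at -1.68 and -1.44. In SUM159 these 2 genes were called higher, at 1.92 and 1.82. E2F7, a repressor of the family, was highest in both lines, at 0.52 in MDA-MB-231, under the threshold, and 2.17 in SUM159. TFDP2, a partner of E2F proteins, was lowest in SUM159 at -1.51.

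Mitotic genes moved with the replication genes. The 20 mitotic genes included TOP2A, which is also in the list of other replication factors. Of the 20, 17 were called lower in MDA-MB-231 (median -0.98), against 15.8% of all genes. In SUM159 20 were called higher (median 2.38), against 21.5%. Their median level was 176 and 95.3 CPM in MDA-MB-231 with DMSO and MBZ and 18.7 and 77.2 CPM in SUM159. Of 14 genes often used as references, 6 were called lower and 0 higher in MDA-MB-231 (median -0.52, with ACTB at -1.22). There 15.8% of all genes were lower and 18.3% higher. In SUM159 2 of the 14 were lower and 2 higher (median 0.0018), against 21.7% and 21.5% of all genes. The part of cell number, of the culture of SUM159 with DMSO and of the reference genes in these values was not tested, and with 1 culture per condition the treatment and the culture cannot be told apart.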

How the data were processed

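RNA-seq libraries of MDA-MB-231 and SUM159, 1 for each line with 1 μM MBZ and with DMSO for 72 h, were grouped by their labels. The authors used STAR 2.5 (GRCh38) for mapping and HTSeq 0.6.1 (union mode) for counting, and deposited raw counts; the annotation release and strand setting are not given in the sources used here. The table held no column of another sample. Symbols came from Ensembl identifiers, and positions, overlaps and transcript lengths from GENCODE release 44.

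Fold changes were differences of log2 CPM (edgeR 4.0.16 in R 4.3.3, prior count 0.125, TMM within a line), with 95% Clopper-Pearson intervals. Levels used TMM over the 4 libraries. In a library a count of 0 allows up to 3 counts, or 0.121 to 0.175 CPM before TMM. The shared test was edgeR's quasi-likelihood test with filterByExpr and Benjamini-Hochberg adjustment over all genes tested (common BCV 0.323), which measures the spread between lines and not between cultures. Functions were tested on simulated data. Alternatives were other scalings, thresholds, filters and prior counts, the exact test of edgeR at preset BCVs and DESeq2 1.42.0.

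The 45 genes and the lists were chosen with earlier results of these data known. Genes were described in full by a rule that took the extremes of each role group and those that went against it. The study's assays other than RNA-seq were left out.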

Additional observations from a re-analysis of the deposited data

Results flagged for a closer look

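In 23 genes of the list the fold change went in opposite directions in the 2 lines, at least 1.5-fold lower in MDA-MB-231 and at least 1.5-fold higher in SUM159, and they are listed here for that reason. The difference between the lines was not tested, because each line has 1 library per treatment. On the log2 scale, the fold change in SUM159 exceeded that in MDA-MB-231 by 3.82 for CDC45, 3.39 for RRM2, 3.32 for GINS2, 3.15 for TK1, 2.90 for CLSPN, 2.85 for ORC1, 2.78 for MCM10 and 2.69 for UHRF1. The difference was 2.66 for GINS1, 2.66 for GINS4, 2.46 for TYMS, 2.35 for MCM2, 2.28 for FEN1, 2.27 for LIG1, 2.20 for MCM7, 2.12 for PRIM1 and 2.02 for MCM4. For RFC2 it was 1.86, for POLE 1.84, for PCNA 1.78, for RRM1 1.70, for DNMT1 1.63 and for GINS3 1.56. No group held enough samples for an outlier to be sought.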

How the results depend on the processing

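The counts of the 45 genes called stayed within 1.5 times of their values with TMM over the 4 libraries, DESeq2 size factors, a minimum of 1 count, an average of 100 counts and a prior count of 2. The shares of all genes moved more under both filters. With a minimum of 1 count 34.4% of all genes were higher in MDA-MB-231, 40.3% were higher in SUM159 and 7.72% were lower in the first and higher in the second, and with an average of 100 counts these shares were 10.3%, 13.2% and 2.65%. With scaling by total counts, 25 of the 45 genes were lower in MDA-MB-231 (7.57% of all genes), 2 were higher (29.1%), 40 were higher in SUM159 (32.8%) and 21 were both (2.17%), with medians of -0.61 and 1.40. At a fold change of at least 2, 17 were lower in MDA-MB-231 (5.14% of all genes) and 8 were both (0.83%). By counting intervals that exclude 0, 2 were higher in MDA-MB-231 (30.5%), 2 lower in SUM159 (37% of all genes) and 37 lower in the first and higher in the second (10.6%). edgeR's exact test between 2 libraries, at an adjusted p under 0.005 and a log2 fold change over 1, called 17 lower in MDA-MB-231 (3.51%), 23 higher in SUM159 (8.49%) and 8 both (0.597%) with a preset BCV of 0.1, and 0, 0 and 0 with 0.4 (0%, 0.134% and 0% of all genes). An alternative chosen after seeing the data kept the 23 genes that share no exonic base with another gene. Of these, 15 were lower in MDA-MB-231 (15.8% of all genes), 15 were higher in SUM159 (21.5%) and 9 were both (3.12%). Their median in SUM159 was 0.90, and this set is smaller by construction.

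Of the values of single genes within a line, 283 moved by less than their counting error, 77 by more, and 0 that were called changed sign. Among values that were not called, scaling by total counts turned the sign of RFC4 (0.26) and POLA2 (0.07) in MDA-MB-231 and of CDT1 (0.11) in SUM159, and TMM over the 4 libraries that of RFC4 (0.0161). In the shared test, which genes with opposite fold changes could hardly pass, 0 of the 45 genes were called under any of 5 settings. DESeq2 called 100 genes in all (0.698%), and edgeR with every gene counted at least once called 298 (0.923%). The shared log2 fold changes kept their sign in 153 cases and turned in 27. With DESeq2 these were MCM7 (-0.0437), RFC1 (-0.0121), FEN1 (-0.0237), RPA2 (-0.0544), TYMS (-0.0118) and TK1 (-0.0254). With RLE normalization they were MCM7 (-0.0168), RPA2 (-0.0269), TYMS (-0.0031) and TK1 (-0.0049), and with every gene counted at least once MCM7 (-0.0065) and RPA2 (-0.0166). Cell line was the block that paired the libraries. Without this block they were ORC1 (-0.32), GMNN (-0.11), MCM4 (-0.0685), MCM7 (-0.35), MCM10 (-0.20), GINS3 (0.048), PRIM1 (-0.16), POLE2 (-0.29), FEN1 (-0.55), RPA2 (-0.0303), TYMS (-0.64), TK1 (-0.91), CLSPN (-0.51), TIMELESS (-0.0495) and UHRF1 (-0.29), and 0 genes were called. No other paired analysis was possible because each line and treatment has 1 library, and for the same reason no library could be left out. The cause of these shifts was not tested. Depth limited POLE2, POLA2, CLSPN, GINS4 and PRIM1 in SUM159 with DMSO, with 18 to 57 counts.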
